A study of Mus musculus with 960 samples.

Results

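The forkhead factor genes encode transcription factors that share a winged-helix DNA-binding domain. They were taken here as all protein-coding genes of GENCODE M1, the annotation of mouse build mm9, whose symbol is Fox followed by a letter and digits. The rule gave 42 genes of 22342 protein-coding genes. Accessible DNA around them was read from a list of 50000 windows of 500 bp, of which 0.454% lay within 50 kb of a forkhead gene.

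The source was a primary mammary tumour of MMTV-PyMT mice, in which the mammary tumour virus promoter drives polyoma middle T antigen in mammary epithelium and tumours form there. The methods of the study give an age of 3 months. Fixed and permeabilised tumour cells were stained with antibodies, tagged with Tn5 transposase, which inserts into accessible DNA, and sorted singly into wells (Pi-ATAC). All 960 labelled wells came from this tumour model. On 8 plates the stains were for EpCam, found on the surface of epithelial cells, and HIF1a, the part of hypoxia-inducible factor that oxygen destabilises. On 2 plates they were for EpCam and CD45, which marks blood-derived cells. The authors called peak summits on aggregated cells and kept the best 50000, so the list is 1 pooled sample. It holds no replicate, no read count and no level per well, the depth behind a window is unknown, and no groups could be compared. Per the methods, summits were called on cells of a single tissue condition, and the list carries HIF in its name. The sources used here do not state outright which wells were aggregated. A gene without a window is a gene without a region among those kept, which does not show that its DNA was inaccessible.

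Forkhead factors recognise related sequences built on the core TGTTTAC. Some, such as FOXA1, can bind DNA wrapped in nucleosomes and open it for hormone receptors in mammary luminal cells. FOXO proteins switch on cell-cycle arrest, stress and metabolic genes, and are held out of the nucleus when phosphorylated by AKT below PI3-kinase, a pathway that middle T antigen activates. FOXM1 drives the genes of mitosis, FOXJ1 those of motile cilia, and many other members pattern embryonic tissues.

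The sequences shown are the stretches that hold a forkhead core, so that they can be read beside the values that follow. A core (TGTTTAC or TATTTAC, on either strand) was present in 1 of the 39 windows at a forkhead start site and in 19 windows within 50 kb of a forkhead gene. The start-site window and 7 of the 8 windows inside forkhead genes that hold a core are given on the plus strand of mm9, read 5′ to 3′, with the core in capitals and up to 61 bases around it. GTAAACA and GTAAATA are the same cores read on the minus strand.
Foxo4, before its start site, chrX:98449497-98449557: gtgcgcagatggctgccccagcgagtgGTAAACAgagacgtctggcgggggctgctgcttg
Foxo1, intron, chr3:52074380-52074429: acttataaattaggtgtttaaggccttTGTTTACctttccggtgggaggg
Foxk1, intron, chr5:142888891-142888951: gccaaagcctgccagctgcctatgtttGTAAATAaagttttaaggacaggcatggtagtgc
Foxk1, intron, chr5:142916482-142916542: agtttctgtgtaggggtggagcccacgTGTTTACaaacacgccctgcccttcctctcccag
Foxp1, intron, chr6:98922673-98922733: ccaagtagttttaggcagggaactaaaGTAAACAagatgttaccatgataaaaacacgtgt
Foxp1, intron, chr6:98948001-98948061: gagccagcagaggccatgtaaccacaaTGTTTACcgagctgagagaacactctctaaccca
Foxj2, intron, chr6:122774060-122774120: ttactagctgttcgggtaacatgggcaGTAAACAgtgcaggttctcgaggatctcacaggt
Foxo3, intron, chr10:41971243-41971303: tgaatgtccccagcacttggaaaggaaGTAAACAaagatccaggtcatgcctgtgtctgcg
Each of these windows held 1 core. The Foxo4 stretch lay upstream of the start, and the other genes carried theirs in introns.

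Within 1 kb of a start site, 24 of the 42 forkhead genes had a window, which is 57.1% (exact binomial 95% interval 41.0 to 72.3, counting error only). Over all protein-coding genes the share was 52.2%, inside that interval. At least 1 window overlapped the gene itself in 21 forkhead genes (50.0%, 34.2 to 65.8), against 57.1% of all genes. At least 1 window lay within 50 kb in 35 (83.3%, 68.6 to 93.0), against 80.0% of all genes. The start-site and 50 kb shares were therefore close to those of all genes. The in-gene share depended on the definition, since with the window centre required to lie in the gene it was 13 of 42 (31.0%), against 46.1% of all genes. The median number of windows within 50 kb was 3.5 per forkhead gene and 4 per protein-coding gene, and per 100 kb of locus it was 2.82 and 2.97.

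**Figure D1:**
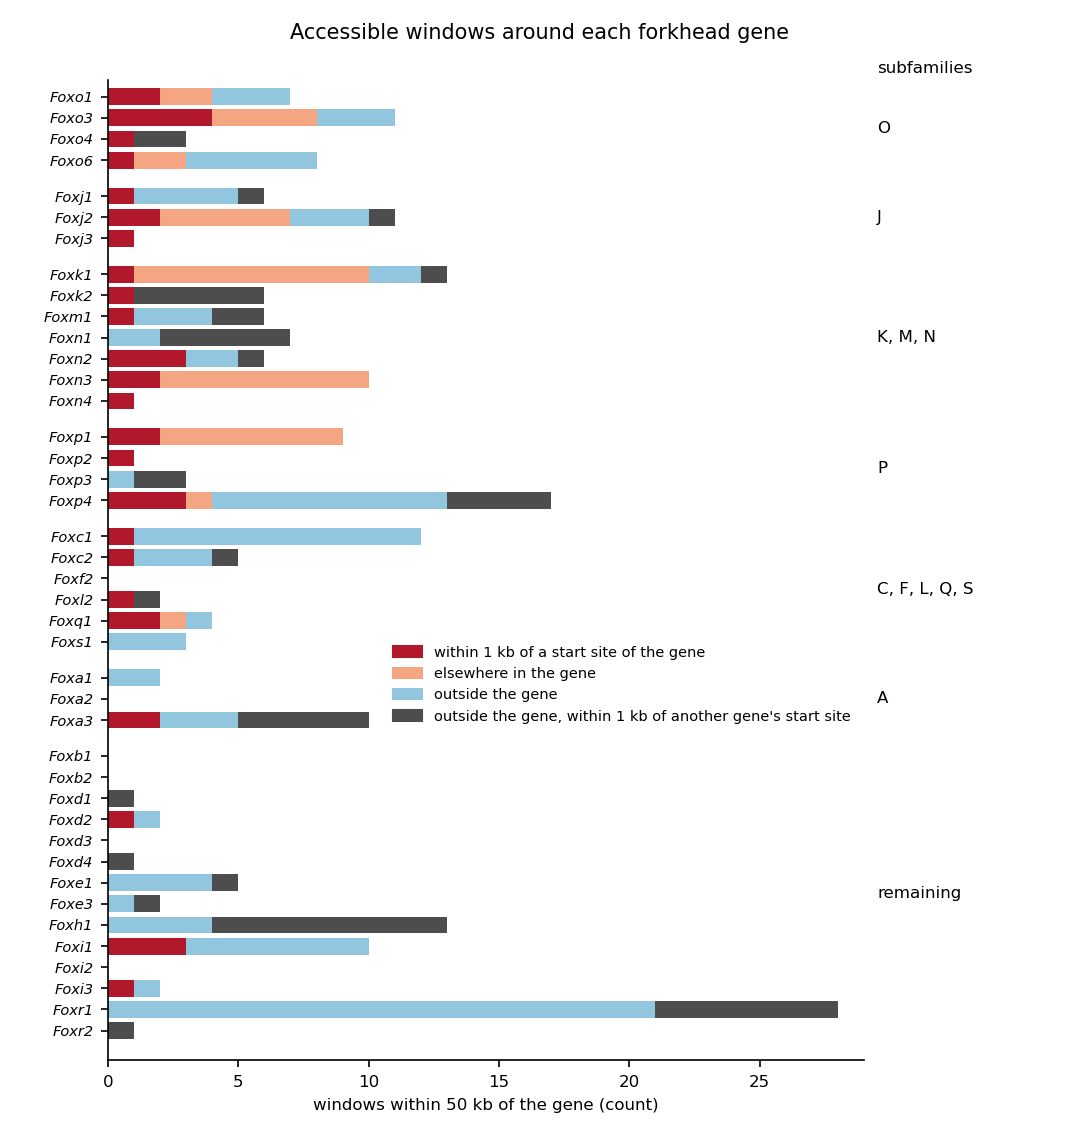
Number of windows within 50 kb of each forkhead gene, 1 bar per gene, grouped by subfamily. Colours give windows within 1 kb of a start site of the gene, elsewhere in the gene, outside it, and outside it at the start site of another gene. All 4 FoxO genes and all 3 FoxJ genes carry a start-site window, while 12 of the 15 genes of the lowest group, whose bars are drawn for those named in the text, carry none.

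Counts by subfamily ran from every gene to few. A start-site window was found at 4 of 4 FoxO genes, 3 of 3 FoxJ genes, 6 of 7 genes of subfamilies K, M and N, and 3 of 4 FoxP genes. Of the genes of subfamilies C, F, L, Q and S, 4 of 6 had one. The share was 1 of 3 for FoxA and 3 of 15 for the remaining subfamilies, among them B, D, E, H, I and R, which are best known from the embryo, the nervous system and the sense organs. Over all protein-coding genes the share was 52.2%, and among those with a CpG-rich start site (defined below) it was 84.4%. All FoxO and FoxJ genes and 5 of the K, M and N genes had a CpG-rich start, each with a window. The high counts thus lie near that background. In the remaining subfamilies 10 genes had a CpG-rich start, and 2 of them had a window. These lists are short and were drawn up with results of these data known, so the counts are descriptions.

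The FoxO genes, the arm of the family that answers to insulin and PI3-kinase, all had windows at their starts. Foxo3, which encodes a factor for quiescence and cell death, had 4 windows within 1 kb of its start on chromosome 10, the most of any forkhead gene. They belonged to 1 called peak spanning 2578 bp, chr10:41995259-41997836, with summits from 1026 bp upstream to 1039 bp downstream of a start site. A further 4 windows lay in Foxo3 introns, with summits 2592, 25304, 45340 and 51017 bp downstream of the start, and 3 more lay beyond the 3′ end. The Foxo3 gene held 7.38 windows per 100 kb, and 9.83% of the 4834 protein-coding genes of at least 50 kb held as many or more.

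Foxo1, which acts on glucose production and vessel growth, had 2 start-site windows in 1 called peak of 1103 bp at chr3:52071399-52072501. It had an intronic window 1921 bp and another 75120 bp downstream of the start, and 3 windows of 1 called peak with summits 9604 to 10350 bp upstream. For all 7 windows around Foxo1 the nearest start site of any protein-coding gene was its own. Foxo6, the relative best known from the brain, had 1 start-site window, 2 in an intron and 5 downstream, and its own start was the nearest for all 8. Foxo4, on the X chromosome, had only the window that holds the forkhead core, with its summit 0.332 kb upstream of the start. The other 2 windows within 50 kb of Foxo4 lay at the start sites of Snx12 and Med12.

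Genes that control FoxO proteins were also well covered. A start-site window was found at 16 of 16, led by Pik3r1, the regulatory subunit of PI3-kinase, with 8 windows, the kinase gene Sgk1 with 7, and Akt2 and the deacetylase gene Sirt1 with 5 each. All 16 had a CpG-rich start site, a class in which 84.4% of all protein-coding genes had a window. Of 20 known FoxO targets, 17 had a start-site window, against 52.2% of all protein-coding genes. Bbc3, which encodes the death factor PUMA, and the cyclin gene Ccng2 had 4 each, and the cell-cycle inhibitor gene Cdkn1b and the catalase gene Cat had 3 each. The 3 without one were Pck1, G6pc and Igfbp1, which are genes of liver glucose output and liver secretion. These 3 and Cat were the targets without a CpG-rich start, a class in which 22.2% of all genes had a window. Among the 16 FoxO targets with a CpG-rich start site, 16 had a window.

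Foxk1 and Foxk2 encode factors for glucose use and the restraint of autophagy. Foxk1 had 10 windows inside its gene, 1 at the start and 9 in introns, which made 16.5 per 100 kb. Of the protein-coding genes of at least 50 kb, 1.59% were as dense or denser. The intronic summits lay 10291 to 40641 bp downstream of the start, and at chr5:142888542-142889041 and chr5:142916415-142916914 the windows held the forkhead cores shown above. Beyond the gene, 2 windows of 1 called peak lay 33636 and 34049 bp upstream, and 1 lay at the start of C330006K01Rik. Foxk2 had a single window in its gene, at chr11:121121014-121121513 over its CpG-rich start, and 5 outside it, all at the starts of other genes.

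Foxm1, the mitotic member, had 1 window at its start, chr6:128312534-128313033, which is also within 1 kb of the start of 5930416I19Rik. No window lay elsewhere in the gene, and for none of its 6 windows within 50 kb was the Foxm1 start the nearest. All 10 known FoxM1 targets had a start-site window. Cenpe, a kinesin of the kinetochore, had 3, the survivin gene Birc5 and the cyclin gene Ccnb1 had 2 each, and Plk1 and the remaining targets had 1 each. Of the 10, 9 had a CpG-rich start site, the class with a window at 84.4% of all genes, so the count lies near that background.

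Foxn2 had 3 start-site windows in 1 called peak of 1659 bp at chr17:88839687-88841345. Foxn3, a repressor linked to the DNA damage checkpoint, had 2 start-site windows in 1 called peak of 1107 bp and 8 windows in introns, up to 160996 bp from the start. Its gene is 255.07 kb long and held 3.92 windows per 100 kb. The Foxn3 start was the nearest for 4 of the 10 windows, and the start of 3300002A11Rik for the others. Foxn4, a factor of retina and spinal cord, had 1 window, with its summit 919 bp upstream of the nearest start site. Foxn1, the factor of thymic epithelium and hair follicles, had none at its start, and 5 of the 7 windows within 50 kb lay at the starts of Aldoc, Pigs and Unc119.

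The FoxJ genes each had a start-site window. Foxj1, the regulator of motile cilia, had its window over the start with the summit 68 bp upstream, and 4 windows downstream, of which those 5068 and 8009 bp from the start each held a forkhead core. Foxj2 had 11 windows within 50 kb. Its start had 2 windows, chr6:122769701-122770200 and chr6:122770613-122771112, with summits 19 and 931 bp downstream, 5 more lay 4295 to 6628 bp into the gene, and 3 of 1 called peak lay 7845 to 8868 bp upstream, while the last lay at the start of Necap1. Foxj3 had a single window within 50 kb, shared with the start of AA415398.

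FoxP proteins are repressors that pair through a leucine zipper. Foxp4 had 17 windows within 50 kb, 3 of them at the start in 1 called peak of 1459 bp at chr17:48060525-48061983. Only 1 other window fell in the gene, 50827 bp from the start, and the rest lay outside it, 4 of them at the start of Mdfi. Foxp4's own start was the nearest for 7 of the 17. Foxp1, a factor of B cells, lung and heart, had 9 windows, all inside its 341.19 kb gene. Foxp2, known from speech and motor circuits, spans 540.63 kb, the longest forkhead gene, and no window fell inside it. Its only window within 50 kb had its summit 0.692 kb upstream of its outermost start. Foxp3, the factor of regulatory T cells, had no window at a start site or in the gene, and its closest, 5046 bp away, lay at the start of Ppp1r3f.

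Alternative start sites could be told apart in 7 forkhead genes whose starts lie more than 1 kb from each other. In 5 of the 7 (Foxp1, Foxp2, Foxm1, Foxk2 and Foxn3) some start groups had a window and others did not, and in Foxp3 and Foxr2 none did. Foxp1 had 4 such groups, with windows at 2. These were the CpG-rich group at chr6:98978186-98978936, and the outermost, CpG-poor group at chr6:99216495-99216509 with an observed to expected CpG ratio of 0.231. The window at this outermost group also overlapped another gene, Eif4e3, whose start was not within 1 kb. Foxp2 had a window at the outermost, CpG-rich group alone, and the 2 groups that start deeper in the gene had none. In Foxk2 the window lay at the inner, CpG-rich group.

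**Figure D2:**
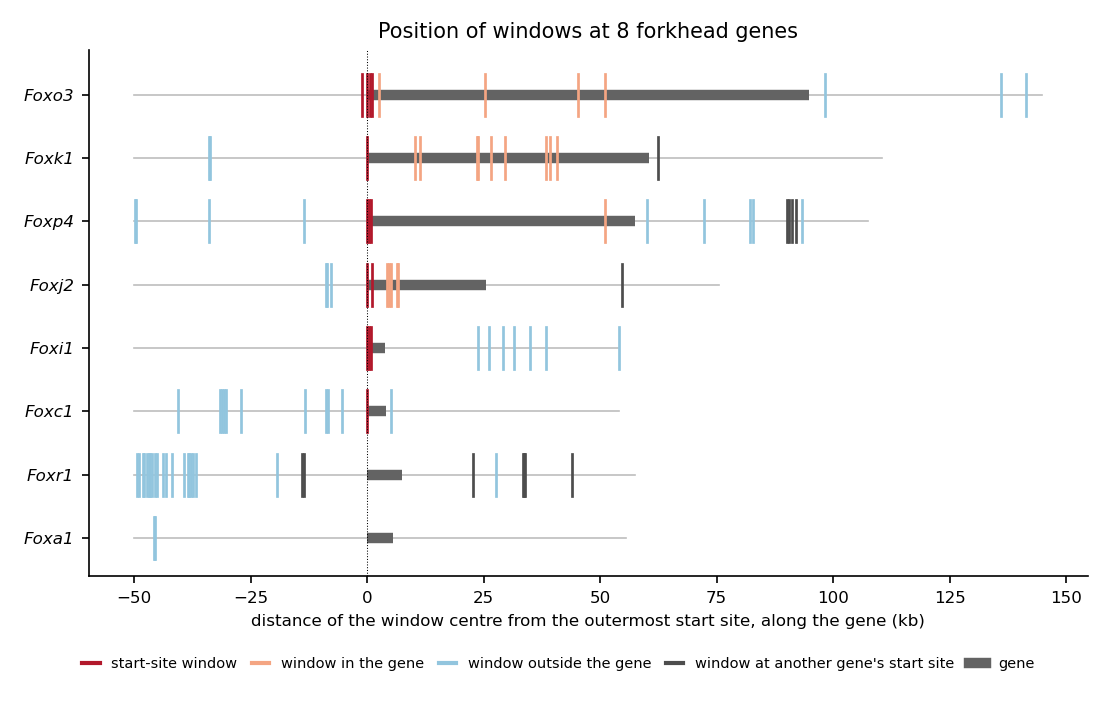
Windows along 8 forkhead genes, drawn as ticks against the distance in kb of the window centre from the outermost start site, with the gene as a thick grey line and 50 kb on either side as a thin line. Foxk1 has ticks through its gene, Foxc1 mostly upstream, Foxi1 at the start and downstream, and Foxr1 only outside the gene, most of them 36752 bp or more upstream.

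Subfamilies C, F, L, Q and S act in mesoderm, vessels, gonad and epithelium. Foxc1, which is needed for eye, skull and vessel development and is also known from basal-like breast tumours, had 12 windows. Its start carried 1, chr13:31898256-31898755, with the summit 9 bp upstream, and 10 lay upstream of the gene, 5307 to 40689 bp from the start. The largest called peak held 4 windows over 1955 bp at chr13:31866613-31868567. None of the 12 lay within 1 kb of another gene's start, and for all of them the Foxc1 start was the nearest. Foxc2, its relative in lymphatic vessels, had 5, of which 1 was at the start and 1 at the start of Mthfsd.

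Foxq1, a factor of hair and epithelium, is a short gene with windows along it. Its 3 windows had summits 38 bp upstream and 1068 and 1797 bp downstream of the start, and the last lay in coding sequence. All 3 were also within 1 kb of a start of A530084C06Rik. Foxl2, the factor of ovarian granulosa cells, had a window just past its start with the summit 0.465 kb downstream. Foxs1 had none at the start and 3 downstream, the closest 4039 bp from the gene. Foxf2, a factor of gut mesenchyme, sits between Foxq1 and Foxc1 on chromosome 13 and had no window within 50 kb. No window fell in the 64846 bp between Foxq1 and Foxf2, and 11 fell in the 175243 bp between Foxf2 and Foxc1. Foxf1a, outside the symbol rule, had no start-site window and 4 within 50 kb, and Foxl1, which the annotation holds as a pseudogene, had none at its start and 5 within 50 kb.

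The FoxA genes can be set beside the genes of their partners. Foxa1 encodes the factor that opens chromatin for the estrogen receptor in luminal cells. It had no window at its start or in the gene, and its only windows within 50 kb were 2 of 1 called peak, with summits 45452 and 45814 bp upstream. Both lay in the gene Ttc6, whose start was the nearest, 15756 and 16118 bp from the summits. Foxa2, the endoderm factor, had none within 50 kb, and its closest window, chr2:147753905-147754404, was 114209 bp away. Foxa3, known from liver, had 10. Its 2 start-site windows, chr7:19608859-19609358 and chr7:19609378-19609877, also lay within 1 kb of the start of Sympk, and 5 of its other 8 windows lay at the starts of Mypop and Irf2bp1.

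Of the listed partners of FoxA1, 7 of 8 had a start-site window, against 52.2% of all protein-coding genes. All 5 with a CpG-rich start had one, against 84.4% of all such genes. Gata3, the luminal master regulator, had 6, Tcfap2c, which encodes AP-2 gamma, had 4, Esr1, the estrogen receptor gene, had 3, and Pgr, the progesterone receptor gene, had 2. Tff1, an estrogen-induced secreted peptide, had no window within 50 kb. Markers of luminal epithelium had start-site windows at 10 of 10 genes, from 1 window at Krt19 and Cldn4 to 6 at Gata3 and Ehf, although only 3 of the 10 had a CpG-rich start, and genes without one had a window in 22.2% of cases. Basal markers had them at 1 of 6 (Oxtr), leukocyte markers at 0 of 8, fibroblast markers at 1 of 7 (Pdgfra) and endothelial markers at 0 of 5. Only 1 basal (Oxtr), 0 leukocyte, 1 fibroblast (Pdgfra) and 1 endothelial marker (Kdr) had a CpG-rich start. The other markers of these lists had no start-site window. They belong to the class with one in 22.2% of all genes, in which low counts are common. By start-site windows the list resembled that of a luminal epithelial population. The paper describes the cells of the HIF1a experiment as isolated EpCam-positive cells, and Epcam is among the luminal markers. The marker counts are therefore no independent evidence of cell type. Some markers of other lineages had windows inside the gene without a start-site window, namely Trp63 (5), Pecam1 (5), Csf1r (1) and Kdr (1). Among the forkhead genes, Foxp3, Foxn1 and Foxs1, known from other lineages, had no start-site window, and neither did Foxa1. Of others known from outside the breast, Foxi1, Foxj1, Foxl2, Foxn4, Foxc2, Foxo6 and Foxp2 had one.

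**Figure D3:**
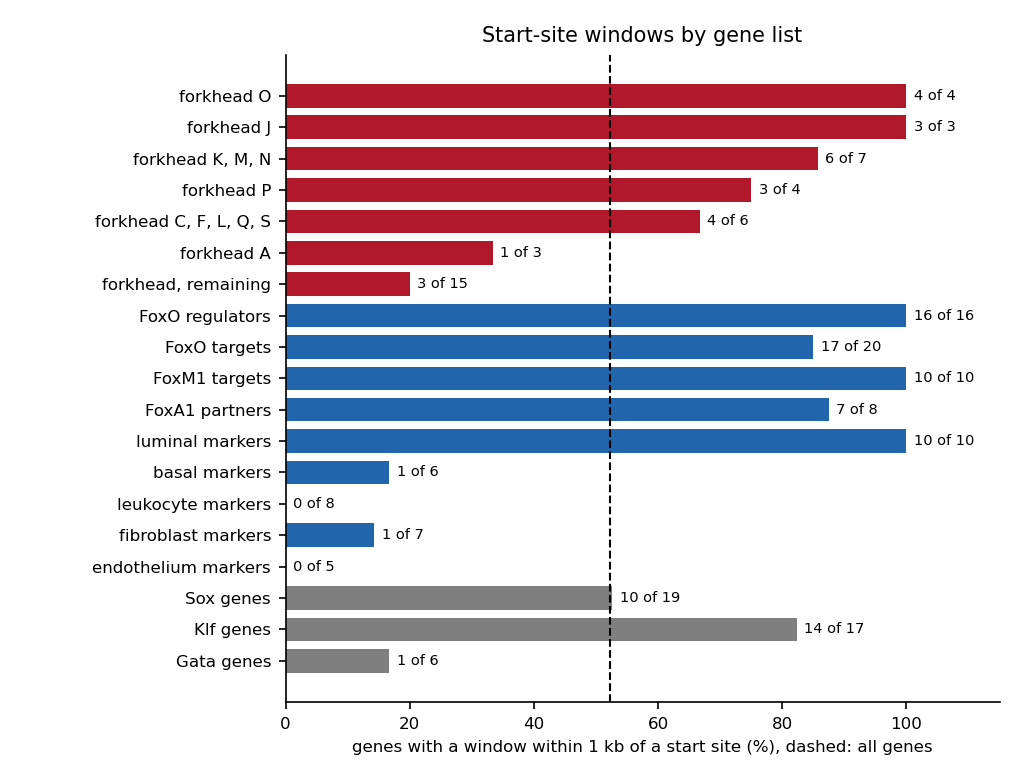
Percentage of genes that have a start-site window (at most 1 kb away), for forkhead subfamilies in red, related gene lists and cell type markers in blue, and other factor families in grey, with counts beside the bars. The dashed line is the share of all protein-coding genes, 52.2%.

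The remaining subfamilies, such as B, D, E, H, I and R, held 12 of the 18 genes without a start-site window. Foxi1, Foxi3 and Foxd2 were the 3 with one. Foxi1, which specifies the ion-transporting cells of kidney and inner ear, had 3 start-site windows in 1 called peak of 1354 bp, chr11:34107011-34108364, with summits 0.026 kb upstream and 0.463 and 0.828 kb downstream of the start. A further 7 windows lay downstream between chr11:34053880 and 34084581, outside any protein-coding gene, and for all 10 the Foxi1 start was the nearest. Foxi3, an ectodermal factor, had a window with its summit 86 bp upstream of a start site and 1 window far upstream. Foxi2 had none within 50 kb, the closest, chr7:142729195-142729694, being 123897 bp away.

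Foxd2 had a start-site window with its summit 0.159 kb upstream. It lay 15770 bp from Foxe3, the lens factor, which had no start-site window, and both genes shared another window upstream. Foxd1, the factor of kidney stroma, and Foxd4 had 1 window each within 50 kb, at the starts of Btf3 and Pgm5. Foxe1, the thyroid factor, had 5 windows, the closest 23952 bp from the gene. Foxh1, which carries nodal signals with SMAD proteins, had 13 within 50 kb, from chr15:76448476-76448975 to chr15:76540791-76541290, without 1 at its start. Of these 13, 9 lay at the starts of other genes, the closest at the start of Ppp1r16a, chr15:76501742-76502241, and for none was the Foxh1 start the nearest.

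Foxr1 had the most windows within 50 kb of any member, 28, and 0.492% of all protein-coding genes had as many or more. None was nearer than 13328 bp, where 2 windows lay at the start of Upk2, a uroplakin gene. Of the 28, 7 lay at other genes' starts and 22 lay upstream, where called peaks at chr9:44285453-44287734 and chr9:44291797-44296371 held 5 and 8 windows. For none of the 28 was the Foxr1 start the nearest, so its count describes the neighbourhood. Foxr2, on the X chromosome, had 1 window, at the start of Rragb.

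The genes without any window within 50 kb included Foxa2, Foxf2 and Foxi2, given above in part, and Foxb1, Foxb2 and Foxd3. Foxd3, a factor of neural crest and pluripotent cells, had its closest window 56671 bp away at chr4:99382033-99382532. For Foxf2 the distance was 65600 bp, to the Foxq1 window at chr13:31651586-31652085. Foxb1 and Foxb2, neural factors, had theirs 90051 bp away at chr9:69514967-69515466 and 91061 bp away at chr19:16855284-16855783.

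CpG content around the start separated genes with and without windows in the list as a whole. A start site was called CpG-rich where the sequence reaching 500 bases to either side had a GC content of at least 50% and an observed to expected CpG ratio of at least 0.6. Of the forkhead genes, 32 of 42 (76.2%) had such a start, against 48.2% of all genes. A window lay within 1 kb of a start in 21 of those 32 (65.6%), against 84.4% of all genes with a CpG-rich start. Among the other 10, 3 had a window (Foxa3, Foxi1 and Foxn3), against 22.2% of all genes without a CpG-rich start. The Foxn3 start had a ratio of 0.472, but its window with the summit 0.701 kb downstream had one of 0.973. The 11 CpG-rich forkhead genes without a start-site window included Foxa1, Foxa2, Foxb1, Foxb2, Foxd1, Foxd3, Foxe1, Foxe3, Foxf2 and Foxr1.

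The gap to the background was widest in the middle of the CpG scale. Where the highest ratio of the gene was between 0.6 and 0.8, 4 of 12 forkhead genes had a start-site window (Foxd2, Foxn4, Foxj1 and Foxo4), against 79.7% of 5756 genes. Between 0.8 and 1.0 it was 15 of 18, against 88.2%, and the 3 without were Foxa1, Foxd3 and Foxf2. Foxo1 and Foxk2, both above 1.0, each had one.

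**Figure D4:**
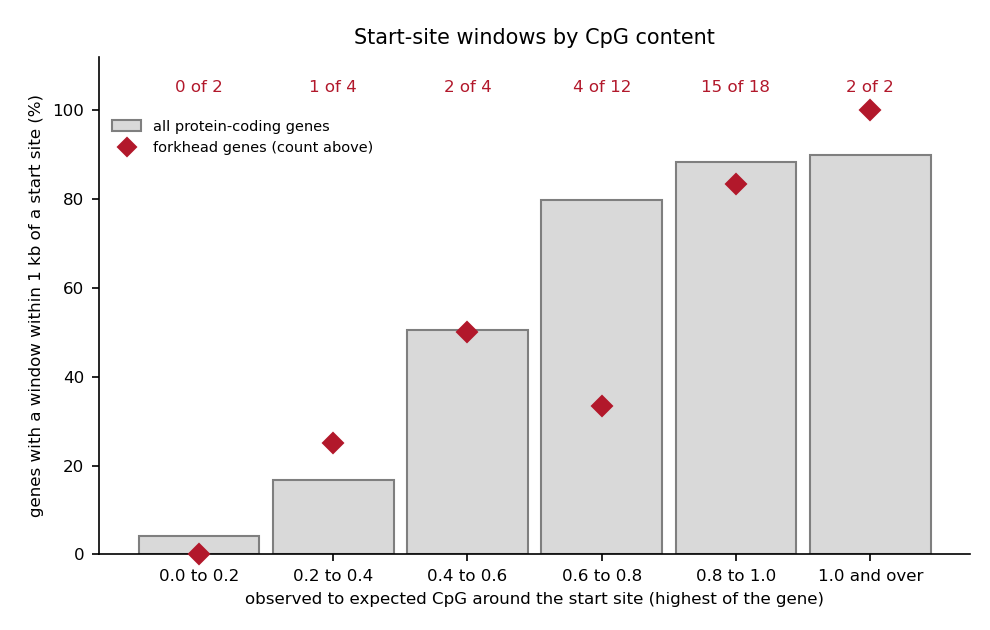
Percentage of genes that have a start-site window (at most 1 kb away), by the observed to expected CpG ratio around the start (the highest of the gene's start sites). Grey bars are all protein-coding genes and red diamonds the forkhead genes with counts above. The forkhead genes lie under the bar between 0.6 and 0.8, at 4 of 12.

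The 200 bases before the outermost start of 4 genes show both classes with and without windows. They were chosen after their values were seen. They are read 5′ to 3′ on the strand of the gene in mm9, with each CG pair in capitals.
Foxo3, chr10:41996562-41996761, minus strand: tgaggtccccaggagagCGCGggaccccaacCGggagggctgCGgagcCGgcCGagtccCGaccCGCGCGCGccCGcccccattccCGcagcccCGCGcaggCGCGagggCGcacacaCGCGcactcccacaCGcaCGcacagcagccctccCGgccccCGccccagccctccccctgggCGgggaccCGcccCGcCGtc
Foxi1, chr11:34108090-34108289, minus strand: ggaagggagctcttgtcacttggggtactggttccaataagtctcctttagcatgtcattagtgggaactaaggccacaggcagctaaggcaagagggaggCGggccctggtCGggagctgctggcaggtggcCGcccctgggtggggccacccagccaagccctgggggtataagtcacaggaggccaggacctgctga
Foxa1, chr12:58647109-58647308, minus strand: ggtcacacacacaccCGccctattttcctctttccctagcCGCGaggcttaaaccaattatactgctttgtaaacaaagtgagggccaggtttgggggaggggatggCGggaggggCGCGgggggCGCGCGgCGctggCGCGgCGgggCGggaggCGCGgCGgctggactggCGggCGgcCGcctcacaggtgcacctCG
Foxd4, chr19:24975800-24975999, minus strand: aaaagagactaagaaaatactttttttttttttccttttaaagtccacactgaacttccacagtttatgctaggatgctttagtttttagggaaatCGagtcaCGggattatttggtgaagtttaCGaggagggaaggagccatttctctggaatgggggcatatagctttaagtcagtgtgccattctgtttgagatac
Foxo3 had 28 CG pairs and 4 start-site windows, and Foxi1 had 3 CG pairs and 3 windows. Foxa1 had 21 CG pairs and no window, and Foxd4 had 3 and no window. The Foxa1 stretch, printed on the minus strand, also holds the letters GTAAACA, outside any window. They are the forkhead core TGTTTAC read on the plus strand of mm9. A core was found in these 200 bases for 2 of the 42 forkhead genes (Foxa1 and Foxb1, 4.76%) and for 4.06% of all protein-coding genes.

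The 39 windows at forkhead starts had a median GC content of 67.2% and an observed to expected CpG ratio of 0.839, against 61.6% and 0.733 for all 18732 windows at start sites. Their summits lay upstream of the start in 22 and downstream in 17, at a median distance of 0.222 kb. Of the 24 genes with a start-site window, 14 had 1, 6 had 2, 3 had 3 (Foxi1, Foxn2 and Foxp4) and 1 had 4 (Foxo3). Those with 3 or more made up 16.7% of the 24, against 18.4% of all genes with a start-site window. In 6 of the 39 windows the start of another gene was also within 1 kb, at Foxa3, Foxj3, Foxm1 and Foxq1. Away from starts, 39 windows lay elsewhere in forkhead genes, 38 in introns and 1 in coding sequence.

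Short sequence motifs in the windows are counted as descriptions of letters. Forkhead cores were present in 8.37% of the windows within 50 kb of a forkhead gene and in 9.61% of all windows. Away from any start site they were present in 15 windows (11.0%), against 11.6% of all such windows, and at starts in 1 of 39 (2.56%), against 6.36%. Windows around forkhead genes thus held forkhead cores about as often as other windows did. The AP-1 motif TGANTCA was present in 18.4% of forkhead windows away from starts, against 18.8% of all such windows, and in 0 of 39 start-site windows, against 8.21%. The ETS motif CCGGAAG was present in 3 of 39 forkhead start-site windows (7.69%), against 17.3% of all start-site windows. Away from starts the order was the reverse, at 5.88% against 4.76%. Within 50 kb of a forkhead gene it was present in 11.5%, against 9.47% of all windows. The full palindromic NFI site was in none of the forkhead windows, against 0.114%.

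The HIF core, ACGTG or GCGTG, and the SP motif GGGCGG were more frequent around forkhead genes. The HIF core was present in 67.8% of the windows within 50 kb, against 58.7% of all windows, and in 61.8% of those away from starts, against 48.3%. At starts the values were 79.5% and 76.1%. The SP motif was present in 36.8% of forkhead windows away from starts, against 18.1%, and in 82.1% at starts, against 69.2%. Median GC content moved with these shares, at 54.2% in the forkhead windows away from starts and 50.4% in all 31268 such windows. Its part in the difference was not tested.

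Other factor families gave a range around the forkhead share. A start-site window was found at 10 of 19 Sox genes (52.6%), 14 of 17 Klf genes (82.4%) and 1 of 6 Gata genes (16.7%, Gata3). Among genes with a CpG-rich start the shares were 46.2% for Sox, 92.3% for Klf and 20.0% for Gata, beside 65.6% for forkhead genes. In genes of at least 50 kb, 9 forkhead genes had a median of 3.67 windows per 100 kb of gene, against 1.87 for all 4834 such genes. The values ran from 0 in Foxp2 through 1.12 in Foxj3, 1.84 in Foxk2, 2.64 in Foxp1, 3.67 in Foxo1, 3.92 in Foxn3, 6.95 in Foxp4 and 7.38 in Foxo3 to 16.5 in Foxk1. Foxo4, Foxp3 and Foxr2 lie on the X chromosome, where 39.7% of 932 genes had a start-site window.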

How the data were processed

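Single cells of an MMTV-PyMT breast tumour were profiled by Pi-ATAC. The authors mapped reads to mm9 with Bowtie2 2.1.0, removed duplicates with Picard 1.79, called summits with MACS2 on aggregated cells, and deposited the 50000 best windows of 500 bp as positions and names, without scores or counts. The submitters' processing notes also list hg19. Depth is unknown. Genes, start sites (45993, of protein-coding transcripts on chromosomes 1 to 19 and X) and sequence came from GENCODE M1 and its genome build, NCBIM37 (mm9). Distances were measured from the nearest window edge, and summits were taken as window centres. A called peak is a window name without its letter. Overlaps were computed in Python 3.11.15 and checked on simulated intervals. No test between groups was possible. Members and lists were chosen with earlier results of these data known. Every forkhead gene was named except 1, which counts in the totals but is not reported here. Positions were given for the 8 with most windows within 50 kb (ties by symbol), those with 3 or more start-site windows, and the closest window where none lay within 50 kb. Those for Foxo1, Foxk2, Foxm1 and the Foxp1 starts were added after their values were seen. Up to 4 genes with most and up to 4 without start-site windows were named per other list. Sequences were shown for up to 8 windows with a forkhead core at a start site or, failing that, in the gene, by number of cores, then position.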

Additional observations from a re-analysis of the deposited data

How the results depend on the processing

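Of 17 alternatives, 13 left the counts within 1.5 times. The 24 forkhead genes that had a start-site window became 24 with distances from the window centre, 23 at 500 bp (51.0% of all genes), 25 at 5 kb (57.3%), 27 at 10 kb (62.0%, adding Foxs1, Foxh1 and Foxp3) and 22 with the outermost start alone. With called peaks of 2 or more kept windows only, the 24 became 7 of 42 forkhead genes, against 21.6% of all genes. The 7 were Foxa3, Foxi1, Foxn2, Foxn3, Foxo1, Foxo3 and Foxp4. With the same peaks, the 21 genes with a window in the gene became 10 of 42, against 25.0% of all genes. These 21 became 13 when the window centre had to lie in the gene (31.0%, against 46.1% of all genes). The 19 windows with a forkhead core became 9 in the central 200 bp (3.59% of all windows), which searches fewer bases, and 14 with TGTTTAC alone. The 35 genes with a window within 50 kb became 31 at 20 kb, 39 at 100 kb and 31 without windows at other genes' starts. Merging overlapping windows left 85.5% of their number and counting called peaks 74.4%, and a stricter definition of CpG-rich left 23 of 32 genes. The list is 1 pooled sample, so no replicate could be left out. No paired analysis was possible because no result comes from a test. Missing windows cannot be told apart from low depth.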
